A study of Mus musculus with 6 samples.

Results

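The cells described here are mouse leukaemia-like cells made from bone marrow by the fusion oncogene MLL-AF9 and labelled as lacking Mll4 (gene symbol Kmt2d), and they came from 2 separate transformations. They were chosen by their deposited count tables: the 2 libraries of floxed cells in which Mll4 was deleted after transformation, and the 1 library from marrow labelled MLL4-/- that carried an empty vector. These are 2 of the 6 samples of the series. Of the 23282 genes in the tables, the 14690 with at least 10 counts in at least 1 of the 3 libraries were members, and the other 8592 were not tested. Of the 8592, 5557 had no count in any of the 3 libraries. The largest count was exactly 10 for 112 members and exactly 9 for 138 of the genes left out. The count minimum was reached only in the empty vector library by 201 members and only in the floxed pair by 1053. For members of those kinds the filter favoured the direction that let them in. Lists that hold several, with a call among them, are counted without them.

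All groups had a 129/Sv x C57BL/6 background and a labelled growth time of 14 days. In the floxed deleted group (2 libraries, called floxed deleted 1 and 2 below), Mll4 f/f marrow with an Mx-Cre transgene, a Cre gene under an interferon-inducible promoter, was transformed by an MLL-AF9 retrovirus. A Cre retrovirus marked by Tomato Red was then added, and GFP+/Tomato+ cells were sorted 5 days later. The floxed intact group (2 libraries) was made in the same way with an empty Tomato Red vector in place of Cre, and it entered the analysis to measure the spread between libraries and as a second view of the floxed cultures. In the null group (1 library), MLL4-/- marrow was infected together by MLL-AF9 carrying a neomycin resistance gene and by an empty vector, selected in G418 and sorted for GFP. The sources used here do not say how or when Mll4 was removed from that marrow. The comparison of the null library with the floxed deleted pair thus asks how far cells labelled as lacking Mll4 differ between transformations. The transformation, the donor mice, the viral markers, the drug selection, the sort and the time since deletion all changed together between these groups and cannot be told apart. Nothing in the labels says that the 2 floxed deleted libraries came from separate mice or cultures. Their sex-linked RNA differed, as given below, so they were not repeat libraries of the same cells, and the spread behind each p-value is that of these libraries alone.

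MLL4 is a histone methyltransferase that places a single methyl group on lysine 4 of histone H3, mainly at enhancers, and works in a complex with proteins shared by the MLL family. MLL-AF9 joins the DNA-targeting part of MLL to a partner that recruits elongation factors, and it keeps Hoxa genes and Meis1 active in progenitors that would otherwise switch them off. Cells transformed by it resemble granulocyte and monocyte progenitors and can mature along either path: neutrophils make primary granules first and secondary and tertiary granules later, while monocytes take up the receptor for CSF1 and become macrophages or dendritic cells.

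The 3 libraries held 61950773, 31713351 and 52518578 counts (floxed deleted 1, floxed deleted 2 and null), and the floxed intact libraries 48102130 and 49491900. The 10 most abundant genes took 4.91% of the counts in the null library, 6.55% and 7.62% in the floxed deleted libraries and 13.4% and 17.4% in the floxed intact libraries. Over 12340 genes with a mean of at least 1 count per 1000000 (CPM), the null library lay at least 2-fold from floxed deleted 1 at 2410 genes (19.5%) and from floxed deleted 2 at 3075 genes (24.9%). The floxed deleted libraries lay 2-fold apart at 1135 genes (9.2%), against 540 (4.38%) for the floxed intact pair.

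The floxed deleted pair was not uniform, and its libraries differed in the sex of the cells. Xist, the RNA that silences an X chromosome in female cells, stood at 737 CPM in floxed deleted 1, 2.13 in floxed deleted 2 and 0.883 in the null library. Ddx3y, a Y-linked helicase gene, stood at 0.154, 39.8 and 80.7 CPM. Floxed deleted 1 thus held RNA of the female type, and floxed deleted 2 and the null library RNA of the male type. The floxed intact pair was split in the same way, with Xist at 1.15 and 802 CPM. Floxed deleted 1 also carried far more mast cell and basophil RNA than floxed deleted 2, as described below, so each result is given with both libraries.

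Kmt2d itself was measured over the whole gene, so its count includes reads from outside the deleted part and does not check the deletion. It stood at 91.4 and 71.0 CPM in the floxed deleted libraries, 102 in the null library and 84.5 and 72.2 in the floxed intact libraries. The null library lay 0.32 ± 0.23 (standard error, SE) above the floxed deleted pair on the log2 scale (adjusted p = 0.407).

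In edgeR's quasi-likelihood test over these 5 libraries, 1043 of 14690 genes (7.1%) passed an adjusted p of 0.05 between the null library and the floxed deleted pair. The null library was lower at 890 of them (6.06% of genes tested) and higher at 153 (1.04%). The median log2 fold change was -3.19 over the genes called lower, 1.49 over those called higher and -0.051 over all genes tested. Among the 13436 genes that reached the count minimum in both groups, 5.58% were called lower and 1.03% higher. Read as folds alone, with no test, the null library lay at least 2-fold below both floxed deleted libraries at 2194 genes (14.9%) and at least 2-fold above both at 556 (3.78%). Against all 4 floxed libraries, a comparison added after the data were seen, it lay 2-fold below at 1945 genes (13.2%) and 2-fold above at 405 (2.76%). The floxed deleted libraries themselves lay at least 2-fold apart at 2159 genes (14.7%).

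The calls rested on few libraries. The null group is 1 library whose spread had to be assumed equal to that of the floxed pairs, and the smallest adjusted p was 0.016. No gene passed by the edgeR test without floxed intact 1 (lowest adjusted p 0.0761, while 3173 genes had an unadjusted p under 0.05), without floxed intact 2 (0.081 and 3169 genes), with only the 3 libraries compared (0.0855 and 3280 genes) or with the sex of the library in the model (0.0526 and 3014 genes). The count rose to 2659 without floxed deleted 1 and to 1389 without floxed deleted 2, and DESeq2 called 2800 genes in the same 5 libraries. The values by library are therefore given for most genes named.

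Genes of monocytes and macrophages were lower in the null library. Of 45 genes on this list, 28 passed the test and all 28 were lower, against 6.06% of all genes tested, and 39 lay at least 2-fold below both floxed deleted libraries, against 14.9% of all genes. One called member reached the count minimum only in the pair. The median log2 fold change of the list was -3.72. The 45 genes summed to 5253 CPM in the null library, 28869 and 42269 in the floxed deleted libraries and 85355 and 137920 in the floxed intact libraries. In bulk RNA, fewer cells of a type and less RNA per cell cannot be told apart.

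Csf1r (gene 12978), the receptor through which CSF1 keeps macrophages alive, stood at 149 and 389 CPM in floxed deleted 1 and 2 and at 6.53 in the null library. The log2 fold change was -5.36 ± 0.81 (SE, adjusted p = 0.0309), and the floxed intact libraries stood at 275 and 412 CPM. Adgre1 (gene 13733), which encodes the macrophage surface protein F4/80, stood at 399 and 304 CPM in the pair and 23.2 in the null library (log2 fold change -3.92 ± 0.36, adjusted p = 0.017). Ccr2, the chemokine receptor that brings monocytes out of the marrow, stood at 858 and 463 CPM against 22.8. In all 3 genes the null library lay far outside the range of the pair, although Adgre1 and Ccr2 were higher in floxed deleted 1 and Csf1r in floxed deleted 2.

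Mrc1, the mannose receptor, stood at 553 and 1005 CPM in the pair and 37.9 in the null library (log2 fold change -4.36 ± 0.50, adjusted p = 0.0214). Msr1, a scavenger receptor, stood at 165 and 383 CPM against 7.37, and Ctsl, a lysosomal protease, at 619 and 1685 against 50.2, both called lower. Lyz2, the macrophage lysozyme, which is close in sequence to Lyz1 and uncertain for that reason, stood at 3264 and 8225 CPM in the pair and at 464 in the null library, but with the wide gap inside the pair its adjusted p was 0.0565 and it was not called. The complement genes C1qa, C1qb and C1qc were all called lower, C1qb at 9.04 and 19.1 CPM against 0.567. The transcription factor gene Maf, which acts in macrophage identity, was called lower as well.

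Not every gene of the list was lower. Ly6c2, the surface protein of inflammatory monocytes, whose near-identical neighbour makes its count uncertain, stood at 438, 928 and 868 CPM in floxed deleted 1, floxed deleted 2 and the null library, so the null value lay inside the pair (adjusted p = 0.687). Itgam, the integrin shared by monocytes and neutrophils, stood at 526, 951 and 225 CPM and was not called (adjusted p = 0.0833). Apoe was low in all 3 libraries, at 4.84, 4.35 and 7.05 CPM. Of the 45 genes, 21 lay at least 2-fold apart within the pair, against 14.7% of all genes. Of the 21, 20 were higher in floxed deleted 2 and 1 in floxed deleted 1, so the pair also differed from each other in these genes. The list's median log2 fold change was -4.15 without floxed deleted 1 and -2.94 without floxed deleted 2.

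**Figure D1:**
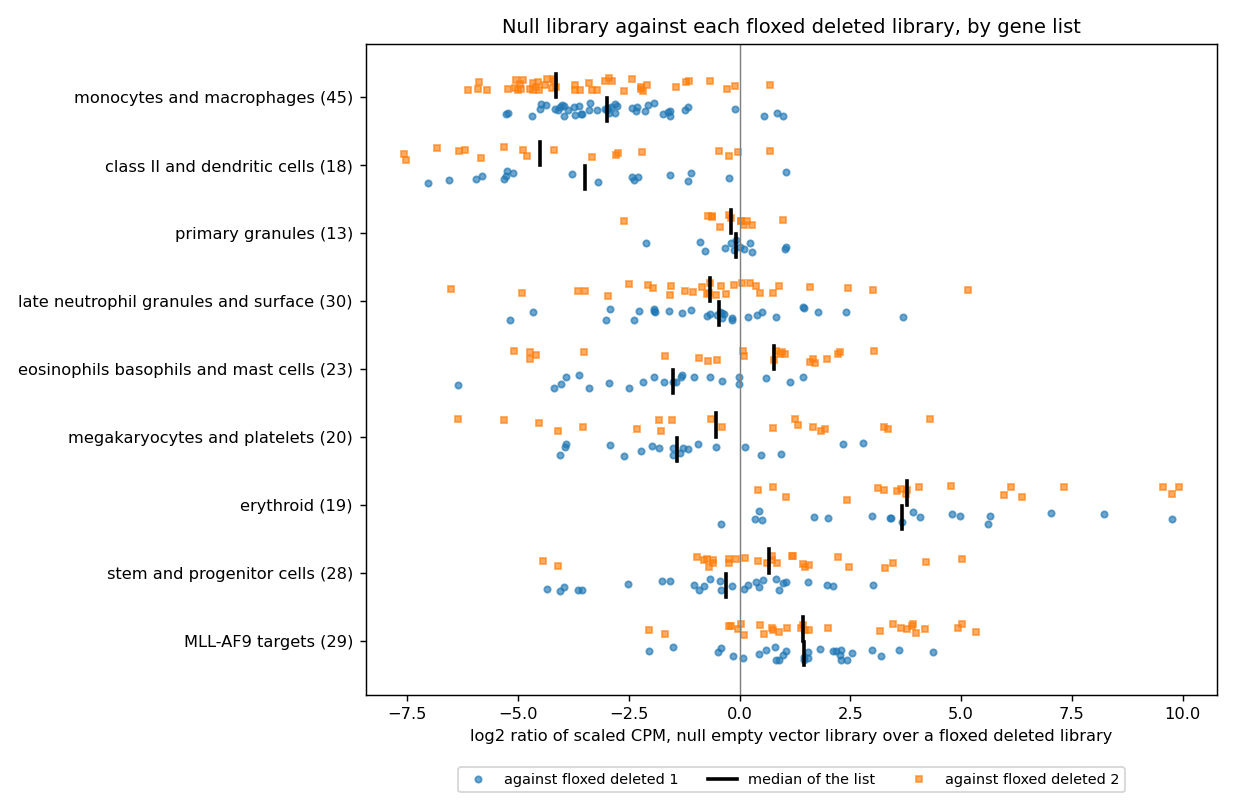
Each point is a gene, placed on the x axis by the log2 ratio of its scaled CPM in the null library over floxed deleted 1 (circles) or floxed deleted 2 (squares), with black bars at the median of each list and the number of genes tested in brackets. Monocyte, macrophage, class II and dendritic genes lie mostly left of 0, erythroid genes right of 0, primary granule genes near 0, and the eosinophil, basophil and mast cell list lies on different sides of 0 against each library (medians -1.51 and 0.77).

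Genes of antigen presentation and dendritic cells were lower in the null library too. Of 20 listed genes 18 were tested, and 4 of these, 3 of them called, reached the count minimum only in the pair. Of the other 14, 8 were called lower and none higher, against 5.58% and 1.03% of all genes counted that way, and 10 lay at least 2-fold below both floxed deleted libraries, against 11.1%. Their median log2 fold change was -3.32. Cd74, the invariant chain that escorts class II molecules, stood at 164 and 311 CPM in the pair, 4.22 in the null library and 268 and 86.3 in the floxed intact libraries (log2 fold change -5.81 ± 1.0, adjusted p = 0.0384). H2-Aa, a class II chain, stood at 51.5 and 93.8 CPM against 0.817, and H2-Eb1, another chain, at 41.0 and 59.0 against 0.300, both called lower. Ciita, the coactivator that switches class II genes on, stood at 4.01 and 5.32 CPM against 0.283, with an adjusted p of 0.0788.

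Transcription factor genes of the dendritic lineages were among those called. Irf4 stood at 9.08 and 13 CPM in the pair and 0.217 in the null library, where it had 13 counts (log2 fold change -5.65 ± 0.48, adjusted p = 0.0166). Batf3, with 163 and 162 counts in the pair and 1 in the null library (adjusted p = 0.0214), is one of those that only the pair let in. Irf8, needed for monocytes and dendritic cells, stood at 16.5, 50.4 and 1.78 CPM and was called lower (adjusted p = 0.0471) with a 3.05-fold gap inside the pair. Xcr1, a receptor of cross-presenting dendritic cells, stood at 15.1, 13.2 and 12.8 CPM and was not called, and Flt3 was below 1 CPM in all 3 libraries.

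Receptors by which phagocytes sense microbes were lower as a group. All 25 pattern recognition, lectin, Fc and complement receptor genes had a negative log2 fold change, and the median was -2.17. Of the 25, 17 were called lower, against 6.06% of all genes tested, 1 of which reached the count minimum only in the pair. Tlr13, a sensor of bacterial RNA, stood at 72.6 and 104 CPM against 6.50 in the null library. Clec7a, the receptor for beta-glucan, stood at 222 and 350 CPM against 16.6, and C3ar1, the receptor for the complement fragment C3a, at 107 and 122 against 17.2. All 3 genes were called lower. Clec12a, a lectin of granulocytes and monocytes, stood at 241, 342 and 248 CPM, inside the range of the pair, and Fcer1g, the shared signalling chain of Fc receptors, at 245, 268 and 179 CPM was not called (adjusted p = 0.195). Of the 6 subunit genes of the phagocyte NADPH oxidase, which makes superoxide, none passed (1 at an unadjusted p under 0.05 and 1 by DESeq2). Its catalytic subunit gene Cybb stood at 220, 392 and 55.8 CPM (adjusted p = 0.0509), while Ncf1 stood at 451, 503 and 472 CPM.

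Primary granule genes stood near their level in the floxed deleted pair. Of 13 genes 1 passed, Ctsc, which was lower, near the 6.06% of all genes called lower. The median log2 fold change was -0.05, which became 0.08 when libraries were scaled by total counts alone. The 13 genes summed to 15589 and 17755 CPM in the floxed deleted libraries and 15554 in the null library, against 5094 and 5869 in the floxed intact libraries. Mpo, myeloperoxidase, stood at 4896 and 5521 CPM in the pair and 5928 in the null library (log2 fold change 0.19 ± 0.46, adjusted p = 0.825). Elane, neutrophil elastase, stood at 1400 and 2731 CPM against 1655, and Prtn3, proteinase 3, at 1407 and 2192 against 1416. The null values of Elane and Prtn3 lay inside the pair.

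Ctsg, cathepsin G, stood at 1344 and 1819 CPM in the pair and 1179 in the null library (log2 fold change -0.42 ± 0.29, adjusted p = 0.399), and Ms4a3, a marker of granulocyte and monocyte progenitors, at 698, 851 and 748 CPM. In Mpo, Elane, Prtn3, Ctsg and Ms4a3 all 3 Mll4-deleted libraries lay above both floxed intact libraries. Mpo stood at 873 and 1792 CPM in the floxed intact libraries, Elane at 213 and 326 and Prtn3 at 141 and 218. Ctsc, cathepsin C, which activates the granule proteases, differed: it stood at 423 and 593 CPM in the pair and 97.7 in the null library (log2 fold change -2.38 ± 0.35, adjusted p = 0.0298), below both floxed intact values of 393 and 504.

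**Figure D2:**
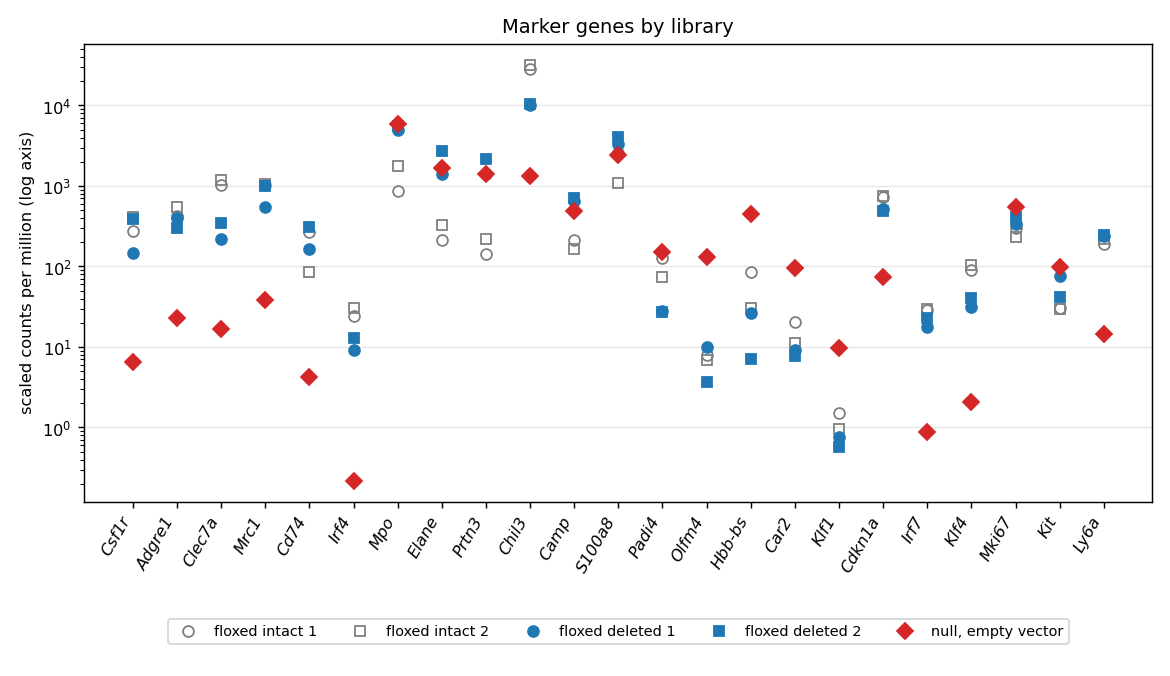
Scaled CPM of marker genes on a log axis, with 1 symbol for each of the 5 libraries: floxed intact (open), floxed deleted (blue) and null (red). The red diamonds lie below all floxed libraries for macrophage, class II and stress genes such as Csf1r, Cd74 and Irf7, inside the floxed deleted pair for Elane and Prtn3, and above all of them for Olfm4, Hbb-bs, Car2 and Klf1.

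Genes of late neutrophil granules and the neutrophil surface split. Of 30 tested genes 2 were called higher and 5 lower in the null library, against 1.04% and 6.06% of all genes tested, and the median log2 fold change was -0.64. The list summed to 10567 CPM in the null library, 22499 and 25133 in the floxed deleted libraries and 44727 and 42371 in the floxed intact libraries. Padi4, the enzyme that citrullinates histones in neutrophils, stood at 28.1 and 27.5 CPM in the pair and 149 in the null library (log2 fold change 2.43 ± 0.32, adjusted p = 0.0258), and the floxed intact libraries stood at 128 and 75.0. Olfm4, a granule protein that marks a subset of neutrophils, stood at 10.1 and 3.65 CPM against 131 (log2 fold change 4.24 ± 0.57, adjusted p = 0.0262), above the floxed intact values of 7.91 and 6.85 as well. Mmp8, the neutrophil collagenase, stood at 277 and 699 CPM against 7.65 (log2 fold change -5.99 ± 0.79, adjusted p = 0.0257). The formyl peptide receptor genes Fpr1 and Fpr2, shared with monocytes, were called lower, Fpr1 at 27.5 and 32.2 CPM against 1.07.

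The secondary granule genes Camp, Ngp and Ltf did not pass. Camp, the cathelicidin precursor, stood at 651 and 717 CPM in the pair and 493 in the null library (adjusted p = 0.300). Ngp, neutrophilic granule protein, stood at 1662, 1616 and 1479 CPM (adjusted p = 0.876). Ltf, lactoferrin, was the exception in size, at 463 and 367 CPM against 95.1 (log2 fold change -2.12 ± 0.52), with an adjusted p of 0.0764. S100a8 and S100a9, the calprotectin genes, stood at 3314 and 3856 CPM in floxed deleted 1, 4050 and 5048 in floxed deleted 2 and 2435 and 2424 in the null library, neither called. Chil3, a chitinase-like protein of neutrophils and macrophages that has near-identical copies in the mouse genome and is uncertain for that reason, stood at 10133, 10448 and 1331 CPM and was called lower (adjusted p = 0.0203).

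Genes of mast cells, basophils and eosinophils differed widely between the floxed deleted libraries themselves. Of 23 genes 17 lay at least 2-fold apart within the pair, against 14.7% of all genes, and 13 of the 17 were higher in floxed deleted 1. The list summed to 14283 CPM in floxed deleted 1, 1886 in floxed deleted 2, 3218 in the null library and 8429 and 4191 in the floxed intact libraries. Cpa3, the mast cell carboxypeptidase, stood at 8006, 321 and 1044 CPM, Tpsb2, a mast cell tryptase with a close paralog, at 1085, 58.4 and 103, and Mcpt8, a basophil protease, at 866, 173 and 544. In all 3 genes the null library lay inside the range of the pair, so the sign of the difference depends on which library of the pair is taken.

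Gata2, a transcription factor gene of mast cells and of stem cells, followed the same order at 659, 68.6 and 321 CPM (adjusted p = 0.937). The list's median log2 fold change was -1.13 against the pair and 0.78 without floxed deleted 1, so its sign rested on that library. The 4 genes that passed were lower in the null library: Ear1, Ear2 and Ear10, ribonucleases of eosinophils with near-identical copies that make single values uncertain, and Ccr3, the eotaxin receptor, which only the pair let in. They compare with 6.06% of all genes tested. Ear2 stood at 17.8 and 26.4 CPM against 1.08. The granule protein genes Epx and Prg2, eosinophil peroxidase and major basic protein, were not called, Epx at 363, 275 and 146 CPM (adjusted p = 0.0729) and Prg2 at 139, 442 and 138.

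**Figure D3:**
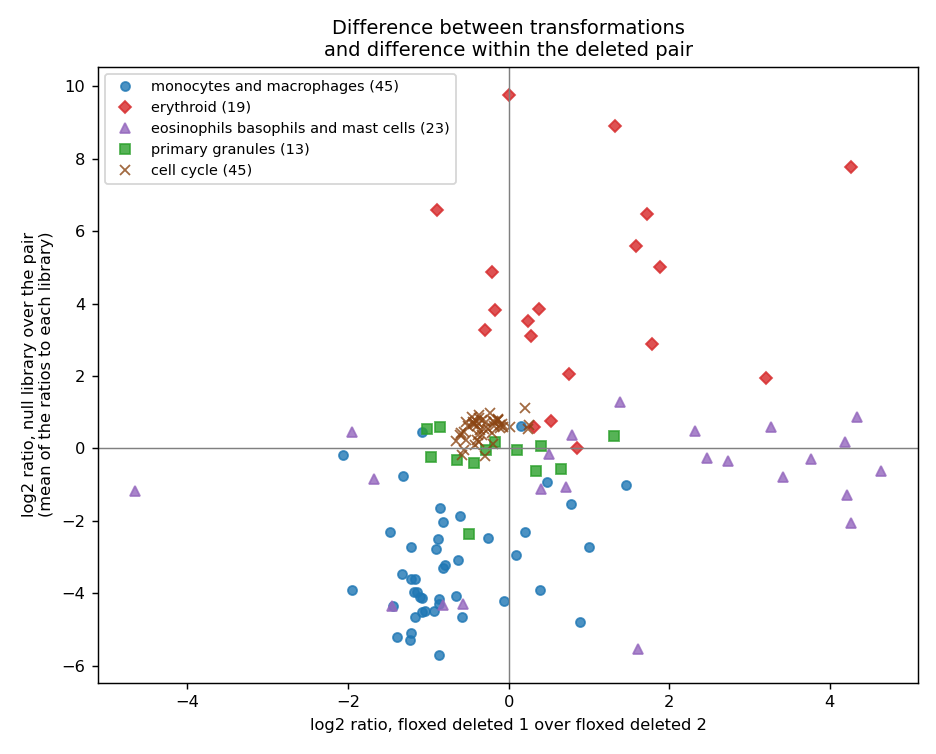
Each symbol is a gene, with the log2 ratio of floxed deleted 1 over floxed deleted 2 on the x axis and the mean of the log2 ratios of the null library over each of them on the y axis. Mast cell, basophil and eosinophil genes spread along the x axis, 13 of 23 at 1 or more, while monocyte and macrophage genes spread downward and erythroid genes upward.

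Erythroid genes were higher in the null library. Of 24 listed genes 19 were tested. Of these, 4 reached the count minimum only in the null library, which favours that direction, and all 4 were called higher. Of the other 15, 8 were called higher and none lower, against 1.03% and 5.58% of all genes counted that way, and 11 lay at least 2-fold above both floxed deleted libraries, against 3.14%. Their median log2 fold change was 3.31. The list summed to 1325 CPM in the null library, 586 and 383 in the floxed deleted libraries and 535 and 510 in the floxed intact libraries. Most of these genes were near 0 in the floxed cells, and with a mean of at least 5 CPM required only 2 calls were left.

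The erythroid list was taken for its promoters because it had the largest share of tested members called among the lineage lists. That share includes the 4 members that only the null library let in. Among members that reached the count minimum in both groups, 53.3% of this list were called, against 61.4% of the monocyte and macrophage list. Shown are the promoters of the 3 called erythroid genes with the smallest p among those with a promoter in the reference. The other shown is Hbb-bs, the most abundant called member, which was put in place of Sptb, the next by p. Each run holds 250 bases before and 50 after the start of the gene in RefSeq GRCm38.p6, read 5′ to 3′ on the strand of the gene, and capitals mark a GATA motif, the letters bound by GATA1 and its relatives, on either strand. Klf1 lies at chr8:84901732-84902031 (+), Ermap at chr4:119189946-119190245 (-), Rhag at chr17:40810899-40811198 (+) and Hbb-bs at chr7:103827879-103828178 (-).
Klf1: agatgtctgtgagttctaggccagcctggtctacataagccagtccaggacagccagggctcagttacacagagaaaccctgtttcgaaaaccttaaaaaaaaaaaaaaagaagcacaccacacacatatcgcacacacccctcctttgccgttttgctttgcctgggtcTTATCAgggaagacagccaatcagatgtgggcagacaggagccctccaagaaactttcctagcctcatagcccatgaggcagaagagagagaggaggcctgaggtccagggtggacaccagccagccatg
Ermap: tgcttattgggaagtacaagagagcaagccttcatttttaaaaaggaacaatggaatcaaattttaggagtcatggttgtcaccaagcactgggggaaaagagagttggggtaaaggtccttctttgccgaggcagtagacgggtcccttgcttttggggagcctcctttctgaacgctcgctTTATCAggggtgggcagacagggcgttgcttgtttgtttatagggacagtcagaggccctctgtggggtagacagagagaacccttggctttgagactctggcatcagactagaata
Rhag: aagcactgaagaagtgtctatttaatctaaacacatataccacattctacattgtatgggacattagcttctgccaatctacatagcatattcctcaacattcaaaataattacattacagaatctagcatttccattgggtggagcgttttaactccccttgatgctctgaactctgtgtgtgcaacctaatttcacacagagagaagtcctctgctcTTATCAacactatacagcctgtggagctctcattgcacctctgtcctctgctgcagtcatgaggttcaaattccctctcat
Hbb-bs: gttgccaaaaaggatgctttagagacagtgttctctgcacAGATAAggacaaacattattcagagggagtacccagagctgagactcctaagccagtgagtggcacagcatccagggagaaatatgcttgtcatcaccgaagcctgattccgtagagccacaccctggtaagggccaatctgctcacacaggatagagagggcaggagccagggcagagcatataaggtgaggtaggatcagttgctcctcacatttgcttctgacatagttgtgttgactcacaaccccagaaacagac
The letters AGATAA occurred in the promoters of Hbb-bs and Epb42 among the 6 of 12 called erythroid genes with a promoter in the table, and in 11.2% of 32851 promoters of this length. When the last letter could also be G (AGATAG), the first letter T (TGATAA) or both (TGATAG), forms added after the promoters had been seen, all 6 held a match, as did 29.8% of all promoters. The match began 80 bases before the start in Klf1, 67 before in Ermap, 31 before in Rhag and 210 before in Hbb-bs. In Sptb, which is not shown, the only match of these forms (CTATCT) began after the start, at base 13 of the gene. Of the other motifs searched on both strands, the MYB letters AACNGNC occurred in 3 of the 6 and in 32.8% of all promoters, and the C/EBP letters TTGCNNAA in 1 and in 10.8%. The PU.1 letters GAGGAAG occurred in 0 of the 6 and in 13.6% of all. A match of letters is a description and shows no binding. Ank1, Car1, Car2 and Slc4a1 were among those with no entry.

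Klf1 (gene 16596), the transcription factor that drives red cell genes, stood at 0.756 and 0.577 CPM in the pair and 9.75 in the null library (log2 fold change 3.85 ± 0.47, adjusted p = 0.022). Ermap, a red cell surface protein, stood at 0.262 and 0.304 CPM against 8.52, and Rhag, of the Rh complex, at 0.185 and 0 against 9.82, both called higher. Hbb-bs, an adult beta globin gene with a near-identical neighbour that makes its count uncertain, stood at 26.4 and 7.11 CPM against 446 and at 85.3 and 30.7 in the floxed intact libraries (log2 fold change 4.73 ± 0.91, adjusted p = 0.0472). In each of these genes the null library lay above all 4 floxed libraries.

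Slc4a1, Ank1 and Car1, of the red cell membrane and of carbon dioxide transport, are among the 4 genes that only the null library let in, and their direction is no support. Slc4a1, the anion exchanger band 3, had no count in either floxed deleted library and 534 in the null library, at least 290.0-fold higher when 3 counts over the pair are taken as the limit of detection (adjusted p = 0.0306). Ank1, ankyrin, had 5, 5 and 681 counts, and Car1, carbonic anhydrase 1, had 1, 0 and 461. Car2, carbonic anhydrase 2, was present in all libraries, at 9.10 and 7.69 CPM in the pair and 95.8 in the null library (log2 fold change 3.51 ± 0.38, adjusted p = 0.0202). The regulators did not all follow: Gata1 stood at 24.8, 2.67 and 31.4 CPM (adjusted p = 0.557) and Tal1 at 99.8, 55.5 and 74.4, inside the pair.

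Of 20 megakaryocyte and platelet genes tested, 3 reached the count minimum only in the pair, and 1 of these was called lower. Of the other 17, 2 were called lower and none higher, against 5.58% and 1.03% of all genes counted that way. Their median log2 fold change was -0.65, against -1.12 over all 20. Without floxed deleted 1, calls rose over all genes, and members of this list were called in both directions. The median of the 20 was then -0.55. Members were called in both directions by DESeq2 in the same 5 libraries as well. Thbs1, thrombospondin 1, which macrophages also make, stood at 2458 and 2819 CPM in the pair and 163 in the null library (log2 fold change -4.02 ± 0.40, adjusted p = 0.0177). Vwf, von Willebrand factor, stood at 55.2 and 58.7 CPM against 11.8 (adjusted p = 0.0171). Pf4, platelet factor 4, stood at 67.8, 360 and 8.95 CPM with an adjusted p of 0.0796. Itga2b, the platelet integrin chain, stood at 258, 35.8 and 136 CPM, inside the pair. Gp9 and Gp1bb, chains of the platelet receptor for Vwf, pointed the other way, Gp9 at 0.679 and 0.334 CPM against 3.48, and were not called.

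Of 29 genes that MLL fusions keep active, 5 were called higher in the null library and 2 lower, against 1.04% and 6.06% of all genes tested, and 22 were not called. A positive log2 fold change was found in 26 of the 29, and the list's median was 1.25. Of the 29, 1 reached the count minimum only in the null library and was not called. Of the other 28, 14 lay at least 2-fold above both floxed deleted libraries, against 3.14% of all genes counted that way. Their median was 1.23. Hoxa9 (gene 15405), the homeobox gene on which MLL-AF9 leukaemia depends, stood at 10.5 and 9.21 CPM in the pair, 83.0 in the null library and 3.07 and 3.26 in the floxed intact libraries (log2 fold change 3.07 ± 0.21, adjusted p = 0.016). Hoxa7 stood at 2.56 and 1.49 CPM against 23.6 (log2 fold change 3.53 ± 0.40, adjusted p = 0.0214). Hoxa10 and Hoxa5 lay on the same side without passing, Hoxa10 at 6.51, 2.55 and 38.1 CPM (adjusted p = 0.0589) and Hoxa5 at 3.12, 1.19 and 15.0 (0.067). Neighbouring Hoxa genes overlap, and no source used here gives the strand setting of the counting. Reads of these genes may therefore be shared.

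The cluster was not uniform. Hoxa3 stood at 1.05, 0.456 and 5.15 CPM (adjusted p = 0.0657), but its neighbour Hoxa4 did not show this, at 0.401, 0.821 and 0.717 CPM with the null value inside the pair. Meis1, the partner of HOXA9, stood at 16.5, 3.86 and 58.3 CPM, above all floxed libraries but with a 4.27-fold gap in the pair (log2 fold change 2.51 ± 0.76, adjusted p = 0.113). Pbx3, another partner, stood at 7.80, 5.71 and 5.85 CPM. Outside the cluster, Eya1, a phosphatase and coactivator, stood at 0.601 and 0.304 CPM against 12.7 and was called higher, as were Lmo2 (61.3 and 66.3 against 179) and Mef2c (13.3 and 13.9 against 36.4), regulators of early blood cells. Id2 and Zeb2, both also active in mature myeloid cells, were called lower, Id2 at 214 and 214 CPM against 51.6. The list's median was 1.43 without floxed deleted 1 and 1.52 without floxed deleted 2.

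**Figure D4:**
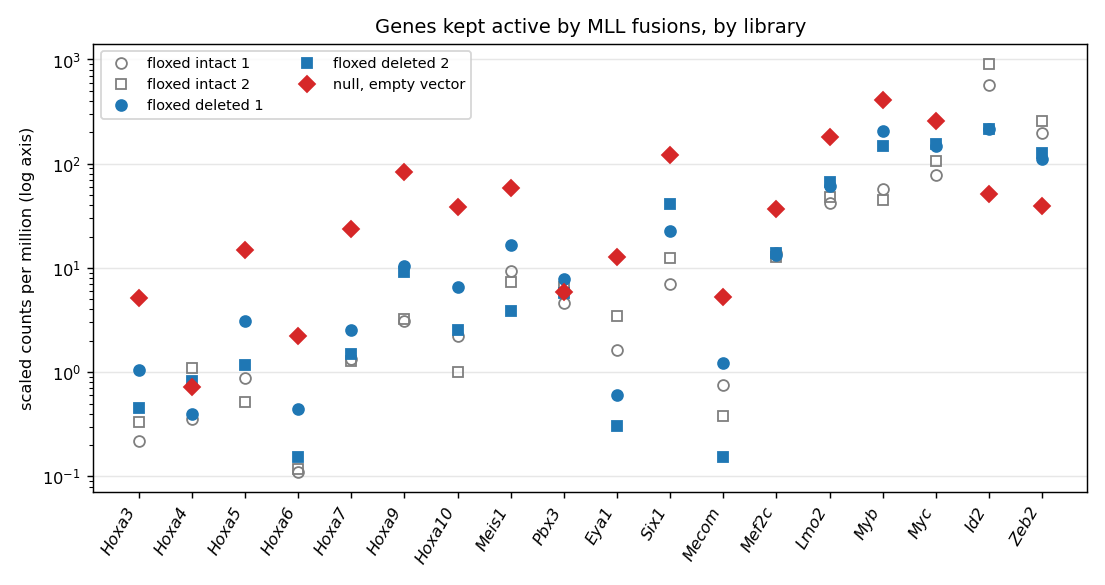
Scaled CPM of Hoxa genes and other genes kept active by MLL fusions, on a log axis, in floxed intact (open), floxed deleted (blue) and null (red) libraries. The null library lies above all 4 floxed libraries from Hoxa5 to Hoxa10 and for Meis1, Eya1 and Lmo2, among them for Hoxa4 and Pbx3, and below all 4 for Id2 and Zeb2.

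Stem and progenitor cell genes had no common direction. Of 28 tested genes 2 were called higher and 2 lower, against 1.04% and 6.06% of all genes tested, and the median log2 fold change was -0.08. Hmga2, a chromatin protein of fetal stem cells, stood at 9.24 and 4.04 CPM in the pair and 74.4 in the null library (log2 fold change 3.48 ± 0.48, adjusted p = 0.027). Ly6a, the stem cell antigen Sca-1, which interferon also induces, stood at 238 and 248 CPM against 14.4 (log2 fold change -4.08 ± 0.26, adjusted p = 0.016), and Procr, the protein C receptor, was called lower too. Kit, the receptor for stem cell factor, stood at 76.1, 42.2 and 97.8 CPM (adjusted p = 0.250), and Cd34 at 147, 34.7 and 78.3, inside the pair. Of the 28 genes 15 lay at least 2-fold apart within the pair, against 14.7% of all genes, and 14 of the 15 were higher in floxed deleted 1. Without floxed deleted 1 the list's median was 0.67, and without floxed deleted 2 it was -0.24.

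Among 35 transcription factor genes of myeloid cells, 16 were called lower in the null library and none higher, against 6.06% and 1.04% of all genes tested, with a median log2 fold change of -1.59. Without floxed deleted 1, calls rose over all genes, and some members of this list were called higher. The median was then -1.58. Klf4, a regulator of monocytes, stood at 31.6 and 40.8 CPM in the pair and 2.05 in the null library (log2 fold change -4.14 ± 0.30, adjusted p = 0.016). Rara, the retinoic acid receptor, stood at 75.0 and 74.9 CPM against 14.6, and Bhlhe41 at 7.17 and 10.7 against 0.400, both called lower. Irf8, also on this list, was called lower, as given above. Spi1, Cebpa, Gfi1 and Cebpe, other factors that act in setting the myeloid lineage, were not called. Spi1 (PU.1) stood at 277, 356 and 214 CPM, Cebpa at 178, 232 and 152, and Gfi1, a repressor needed for neutrophils, at 248, 345 and 255. Cebpe, which switches on secondary granule genes, stood at 82.8, 72.9 and 94.1 CPM. Their adjusted p-values lay between 0.259 for Spi1 and 0.749 for Cebpe. Myb, which keeps progenitors dividing, stood at 208, 148 and 411 CPM (log2 fold change 1.21 ± 0.29, adjusted p = 0.0735).

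Of 28 receptor genes for growth factors, cytokines and chemokines, 11 were called lower and none higher, against 6.06% and 1.04% of all genes tested, with a median of -1.08. Without floxed deleted 1, where calls rose over all genes, some of these receptor genes were called higher. Their median was then -1.18. Il6st, the signal chain of the IL-6 receptor family, stood at 86.5 and 245 CPM in the pair and 3.30 in the null library, and Il1r1, an IL-1 receptor, at 16.2 and 22.1 against 0.583. Csf2rb, the common chain of the receptors for GM-CSF, IL-3 and IL-5, whose near-identical neighbour makes its count uncertain, stood at 2721 and 1894 CPM against 634 (log2 fold change -1.86 ± 0.34, adjusted p = 0.0436). All 3 were called lower. Csf3r, the receptor for G-CSF, stood at 42.2, 81.0 and 60.2 CPM, inside the pair, and Csf2ra at 131, 184 and 123 was not called (adjusted p = 0.553). Epor, the erythropoietin receptor, stood at 1.65, 0.972 and 5.27 CPM (adjusted p = 0.0846).

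Cell cycle genes lay somewhat higher in the null library without passing the test. None of 45 genes was called by edgeR, against 1.04% of all genes called higher and 6.06% called lower. An unadjusted p under 0.05 was found for 19, against 4154 of all 14690 genes. DESeq2 called 9 higher, against 919 of all genes. The null library lay above both floxed deleted libraries at 38 of the 45, a share that was not taken over all genes. It lay at least 2-fold above both at 1 of the 45, against 3.78% of all genes. The median log2 fold change was 0.60, against -0.051 over all genes. Scaling by total counts gave 0.73, against 0.081 over all genes, and 4 of the 45 were then called higher, against 281 of all genes. Mki67, a marker of dividing cells, stood at 338 and 418 CPM in the pair and 545 in the null library (adjusted p = 0.270). Mcm5, a subunit of the replication helicase, stood at 166 and 215 CPM against 358 (adjusted p = 0.0792). Ccna2, cyclin A2, stood at 99.9 and 118 CPM against 212, with 39.9 and 52.7 in the floxed intact libraries. Cdkn1a, the gene of the cell cycle inhibitor p21, was called lower at 520 and 488 CPM against 74.7 (log2 fold change -2.76 ± 0.25, adjusted p = 0.017), below the floxed intact values of 738 and 745. The other 6 CDK inhibitor genes were not called; Cdkn1b, p27, stood at 21.9, 17 and 34.0 CPM.

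Immediate early genes, which cells switch on within minutes of a signal or of handling, were lower in the null library. Of 27 genes 16 were called lower and none higher, against 6.06% and 1.04% of all genes tested, and the median was -2.03. Fos stood at 138 and 217 CPM in the pair and 5.23 in the null library (log2 fold change -5.08 ± 0.78, adjusted p = 0.0314), Jun at 65.6 and 114 against 6.27, and Dusp1, a phosphatase that ends MAP kinase signals, at 52.3 and 57.2 against 4.47. Ier2 stood at 102, 93.4 and 76.0 CPM and Btg2 at 28.1, 31.3 and 34.6, neither called. The sorts and the handling of the cells differed between the groups, and their part in these genes and in the macrophage genes was not tested.

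Genes of the interferon response were lower too. Of 44 genes 6, of which 4 were called, reached the count minimum only in the pair. Of the other 38, 15 were called lower and none higher, against 5.58% and 1.03% of all genes counted that way, 20 lay at least 2-fold below both floxed deleted libraries, against 11.1%, and the median was -1.21. Irf7, the factor that amplifies interferon production, stood at 17.8 and 23.0 CPM in the pair, 0.883 in the null library and 29.2 and 29.8 in the floxed intact libraries (log2 fold change -4.53 ± 0.33, adjusted p = 0.016). Oas2, a sensor of double-stranded RNA, stood at 16.0 and 18.5 CPM against 0.700, and Rsad2, the antiviral protein viperin, at 3.98 and 3.77 against 0.250, both called lower. Ifi47, a GTPase induced by interferon gamma, lay on the other side at 28.3, 28.0 and 53.7 CPM and was not called (adjusted p = 0.0725). Interferon genes hardly separated the floxed deleted libraries, with 1 of 44 at least 2-fold apart, against 14.7% of all genes.

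Some of the largest log2 fold changes belonged to genes on none of the lists, and the highest included genes best known from other tissues. P2rx3, an ATP-gated channel of sensory neurons, stood at 0.509 and 1.34 CPM in the pair and 43.2 in the null library (log2 fold change 5.60 ± 0.56, adjusted p = 0.0177). Fgf3, a growth factor gene of embryos, stood at 1.48 and 0.517 CPM against 29.4. Mtmr7, a lipid phosphatase, stood at 1.67 and 1.46 CPM against 34.9. All 3 were called higher and lay above all floxed libraries, P2rx3 at 7.75 and 8.34 CPM in the floxed intact pair.

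At the low end, Ccl22, a chemokine of macrophages and dendritic cells, had 1018 and 564 counts in the pair and 2 in the null library (adjusted p = 0.016), below the count minimum there. Vcan, the matrix proteoglycan versican of monocytes, stood at 342 and 771 CPM against 6.65 (log2 fold change -6.39 ± 0.70, adjusted p = 0.0202). Tgfbi, an adhesion protein of macrophages, stood at 362 and 601 CPM against 5.68. Cttn, the actin-binding protein cortactin, stood at 52.5 and 24.3 CPM against 0.417. Rtl8a and Rtl8b, near-identical retrotransposon-derived genes whose counts are uncertain, stood at about the same values, Rtl8a at 21.8 and 20.4 CPM against 0.267. In every one of these genes the null library lay below all 4 floxed libraries.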

How the data were processed

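RNA was measured by sequencing of libraries made with the TruSeq kit, per the labels' protocols. The deposited tables hold raw counts of reads per gene, 1 table per library; TopHat2 2.0.11, Bowtie 0.12.8 and the mm9 genome are named in the submitters' processing notes, while no source used here gives the counting tool or its strand setting. Genes are numbered in the files; 23185 of 23282 numbers matched a symbol in RefSeq (GRCm38.p6), and the 97 others, which held 0.0779% to 1.01% of the counts of a library, stayed in the fit under their number.

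The 5 libraries described were scaled by TMM and tested with edgeR 4.0.16 (quasi-likelihood test, Benjamini-Hochberg adjustment over all 14690 genes, threshold 0.05) in R 4.3.3, with the contrast of null empty vector minus floxed deleted. The null library has no replicate, and its spread was taken from the floxed pairs. CPM are counts per 1000000 of the scaled library. Folds between single libraries used a prior count of 0.5 and a threshold of 2. The FOXO3 libraries of the null marrow stayed out of the fit, except in 2 alternatives, since an earlier analysis of these data found that pair closer together than the others. DESeq2 1.42.0, other scalings, filters and sets of libraries were tried as alternatives. The fit was tested on simulated data.

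The members and the gene lists were chosen with earlier results of these data known, and some genes are on several lists. Named by rule were Kmt2d, a fixed set of lineage genes, the 4 genes of each list with the smallest p and the 12 highest and lowest calls whose mean reached 10 CPM; the other list members named were chosen after their values were seen, and a few genes that the rule names are not reported here. The 2 libraries of sorted stem and progenitor cells were not analysed here.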

Additional observations from a re-analysis of the deposited data

How the results depend on the processing

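The 5 libraries held from 31713351 to 61950773 counts, and their number limits the test: 1 null library, 2 floxed deleted libraries that differed in sex and in mast cell RNA, and an intact pair needed to estimate the spread. No paired analysis was possible because the null group has 1 library with no replicate number. RLE and upper quartile scaling, the edgeR default filter, no filter, a minimum mean of 5 CPM, robust estimation and the summed FOXO3 pair left the count of genes called within 1.5 times the 1043 found (879 to 1334). Scaling by total counts moved the median of all genes from -0.051 to 0.081, and 281 genes were then called higher and 876 lower, so that 24.3% of calls were higher in place of 14.7%. With all 7 libraries 3299 genes were called, 1456 higher and 1843 lower. DESeq2 called 2800, 919 higher and 1881 lower. With only the 3 libraries compared, and with the sex of the library as a covariate, edgeR called 0 genes in either direction (3280 and 3014 at an unadjusted p under 0.05). Leaving out 1 floxed library at a time gave from 0 (without either intact library, with 3173 and 3169 at an unadjusted p under 0.05) to 2659 calls (without floxed deleted 1), with 0 to 807 higher and 0 to 1852 lower. With a minimum mean of 5 CPM, 1272 genes in place of 2750 lay 2-fold beyond both floxed deleted libraries and 666 in place of 2159 lay 2-fold apart within the pair, from fewer genes tested. The cause of the other moves was not tested.

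Of the 149 genes named in the text with a fold change, 82 were called. None of the 82 changed sign in an alternative that was run, but none of them passed with only the 3 libraries, with the sex covariate or without either intact library. Genes that changed sign did so without passing the test, apart from Cd34, Gata2 and Itga2b, which were called higher without floxed deleted 1. Leaving out libraries in turn, the log2 fold change was highest without floxed deleted 1 and lowest without floxed deleted 2 for Cd34 (-0.86 to 1.17), Gata2 (-0.98 to 2.23), Itga2b (-0.88 to 1.92), Cpa3 (-2.89 to 1.70), Tpsb2 (-3.34 to 0.82), Tal1 (-0.37 to 0.42), Pbx3 (-0.36 to 0.03) and Mcpt8 (-0.62 to 1.65). It was lowest without floxed deleted 1 and highest without floxed deleted 2 for Flt3 (-0.24 to 1.12), Hoxa4 (-0.19 to 0.89), Ly6c2 (-0.10 to 1.04), Csf3r (-0.43 to 0.56), Elane (-0.72 to 0.29), Ms4a3 (-0.19 to 0.15), Ncf1 (-0.09 to 0.12), Gfi1 (-0.44 to 0.10), Clec12a (-0.46 to 0.09), Prtn3 (-0.63 to 0.06) and Prg2 (-1.68 to 0.05). With the sex covariate the sign changed for Gata2 (0.92), Itga2b (0.69), Cd34 (0.48), Tal1 (0.10), Pbx3 (0.05), Cebpe (-0.02) and Flt3 (-0.08). Scaling by total counts turned Ncf1 (0.12), Csf3r (0.10), Ms4a3 (0.08), Tal1 (0.07) and Itga2b (0.01), and RLE scaling and DESeq2 turned Csf3r (0.01 in both) and Ncf1 (0.04 in both). With 7 libraries and with only 3, Csf3r (0.02 in both), Ncf1 (0.04 in both) and Ms4a3 (0.003 in both) changed sign.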

Other observations

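Genes induced by p53, which answers DNA damage, were lower in part in the null library: 4 of 27 passed the edgeR test, all lower (against 6.06% of all genes tested), and the median log2 fold change was -0.72. Beside Cdkn1a these were Plk2, a polo-like kinase, at 24.3 and 42.1 CPM in the floxed deleted libraries and 1.28 in the null library, Phlda3, an inhibitor of AKT, at 53.3 and 38.5 against 6.73, and Fas, a death receptor, at 14.3 and 19.9 against 4.47. Mdm2, which degrades p53, stood at 156, 151 and 77.4 CPM and was not called (adjusted p = 0.0695), and Gadd45a at 20.0, 17.3 and 21.3 CPM was not called either. Among 24 genes of the amino acid stress response driven by ATF4, 3 were called lower (6.06% of all genes) and the median was 0.14. Atf3 stood at 62.7 and 139 CPM against 2.80 in the null library, while the serine synthesis genes Psat1 (201 and 238 against 455 CPM) and Phgdh (136 and 197 against 352) lay higher without passing (adjusted p = 0.0625 and 0.0933).

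Among 25 genes of sterol and fatty acid synthesis 1 was called higher (1.04% of all genes), Fasn, fatty acid synthase, at 165 and 153 CPM in the pair and 328 in the null library (log2 fold change 1.04 ± 0.18 (SE), adjusted p = 0.0392). Of 22 glycolysis genes 1 was called lower, near the 6.06% of all genes: Ldhb, a lactate dehydrogenase chain, at 6.88 and 8.02 CPM against 0.300, and the list's median was -0.18. Subunits of the complexes that MLL-family methyltransferases form gave 2 calls among 19 genes, both higher (1.04% of all genes), and none without floxed deleted 2. Kmt2a, the gene that MLL-AF9 is cut from and whose reads could include the fusion, stood at 50.0 and 40.6 CPM against 94.5, and Ash2l, a shared core subunit, at 67.6 and 65.4 against 123. Of 15 B lineage genes 6 were tested, none was called (1 at an unadjusted p under 0.05, 1 by DESeq2) and they summed to 7.99, 14.6 and 10.95 CPM in the 3 libraries. The 14 T and NK cell genes tested summed to 768, 120.5 and 899 CPM, most of it Gzmb, a cytotoxic protease, at 655, 72.8 and 819 CPM, while the T cell receptor chain gene Cd3d stood at 0.416, 0.395 and 0.150. Of the 14, 1 reached the count minimum only in the null library and 8 only in the pair, and 1 of the 8 was called lower. None of the other 5 was called, against 1.03% higher and 5.58% lower of all genes counted that way. The 8 stroma and endothelium genes summed to 407, 266 and 183 CPM, mostly Pecam1, an adhesion protein that myeloid cells also make, at 341, 176 and 134 CPM. Of the 8, 2 reached the count minimum only in the pair, and both were called lower. Of the other 6, 1 was called higher and none lower, against 1.03% and 5.58% of all genes counted that way. The higher one was Pdgfrb, a growth factor receptor of stromal cells, at 1.80 and 1.79 CPM against 15.7. Of 9 genes that mark RNA quality or selection, such as unpolyadenylated histone genes, none was called, against 7.1% of all genes. An unadjusted p under 0.05 was found for 3, against 4154 of all 14690 genes, and DESeq2 called 3, against 2800. The 9 genes summed to 1470, 647 and 469 CPM in the 3 libraries. The null library lay at least 2-fold below both floxed deleted libraries at 2 of them and above both at 1, against 14.9% and 3.78% of all genes.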
